A study of Mus musculus with 16 samples.

Results

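The Hox genes of clusters A to D encode the homeodomain transcription factors that give cells along the body axis their regional identity, and their chromatin was compared here between XX (female) and XY (male) mouse embryonic stem (ES) cells. The members are 38 listed Hox genes of the 22367 protein-coding gene models of the annotation: 10 in HoxA, 10 in HoxB, 9 in HoxC and 9 in HoxD. They were chosen by gene name and not by a measured value. For each member, the enriched regions over its gene body or within 5 kb of a transcription start site (TSS) were taken, together with all regions over the span of its cluster and 50 kb on each side.

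The ChIP-seq of the study measured H3K27Ac, H3K27Me3 and H3K4Me1 in ES cell lines of both sexes, each from a cross of C57BL/6 and CAST/EiJ mice. The 16 samples are 2 lines of either sex with each antibody, with an IgG control and an input control for either sex. The strain label gives the cross a generation number that counts upward from library to library, and the labels and the methods differ on passage, library kit and sequencer, so a difference between the groups other than sex was not tested. With 2 lines per sex a difference between lines and one between sexes cannot be told apart. All lines were cultured in serum and leukemia inhibitory factor on inactivated fibroblasts of C57BL/6 embryos of both sexes, most of which were removed before harvest, and the labels place them at passages 7 to 10. For every combination of sex and mark the authors deposited a single list of regions, 6 together, with positions only and no score or count. Each list therefore stands for a sex without replicates, no test between the sexes was possible, and the read depth behind a region is unknown. The XX list held more regions than the XY list for each mark (28784 and 26100 for H3K27Ac, 18534 and 15138 for H3K27Me3, 39404 and 34800 for H3K4Me1).

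Hox genes lie in 4 clusters in the order in which they are used along the body: genes at the 3′ end of a cluster (low paralog numbers) are switched on first and pattern the hindbrain and neck, and genes at the 5′ end (high numbers) are switched on last and pattern the lumbar, sacral and limb regions. In ES cells the clusters are a textbook target of Polycomb repression. Polycomb repressive complex 2 places H3K27Me3 on their nucleosomes, and many of the same promoters also carry trimethylated H3K4, which was not measured here, a state called bivalent that leaves genes silent but able to respond. H3K27Ac is placed by other enzymes on the same lysine at active promoters and enhancers, and H3K4Me1 marks enhancers and the flanks of promoters whether active or primed.

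The sequences below are mm9 stretches in the Hox clusters and next to Hoxb13 that lay under a mark in 1 list and not in the other. They are printed 5′ to 3′ with every CpG in capitals, because CpG-rich DNA is where Polycomb complexes are recruited in mammals. The placement upstream of the TSS in place of over it was chosen after the data were seen, and none of the 5 stretches overlaps an annotated exon. The first pair are the 250 bases before Hoxc13 (chr15:102751284-102751533, plus strand, 15 CpG) and before Hoxc12 (chr15:102766938-102767187, plus strand, 14 CpG), which lay under H3K27Ac in the XX list and outside it in the XY list. The next pair are the centres of 2 regions that carried H3K27Ac in the XX list and not in the XY list, upstream of Hoxb13 (chr11:96051850-96052149, plus strand, 9 CpG in 300 bases) and inside Gm53 between Hoxb13 and Hoxb9 (chr11:96113900-96114099, plus strand, 7 CpG in 200 bases). The last are the 250 bases before Hoxa4 (chr6:52141753-52142002, minus strand, 41 CpG), which lay under H3K4Me1 in the XY list and outside it in the XX list.
Hoxc13 upstream: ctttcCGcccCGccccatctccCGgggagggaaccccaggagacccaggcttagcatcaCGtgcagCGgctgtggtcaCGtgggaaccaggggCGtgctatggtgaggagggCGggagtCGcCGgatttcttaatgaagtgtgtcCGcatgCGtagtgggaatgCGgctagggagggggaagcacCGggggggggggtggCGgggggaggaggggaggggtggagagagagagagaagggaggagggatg
Hoxc12 upstream: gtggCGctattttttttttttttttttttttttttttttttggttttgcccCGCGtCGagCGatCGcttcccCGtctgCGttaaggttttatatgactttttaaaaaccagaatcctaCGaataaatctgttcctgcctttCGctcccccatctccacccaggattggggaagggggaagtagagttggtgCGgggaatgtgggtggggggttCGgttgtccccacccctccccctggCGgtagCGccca
Hoxb13 H3K27Ac region: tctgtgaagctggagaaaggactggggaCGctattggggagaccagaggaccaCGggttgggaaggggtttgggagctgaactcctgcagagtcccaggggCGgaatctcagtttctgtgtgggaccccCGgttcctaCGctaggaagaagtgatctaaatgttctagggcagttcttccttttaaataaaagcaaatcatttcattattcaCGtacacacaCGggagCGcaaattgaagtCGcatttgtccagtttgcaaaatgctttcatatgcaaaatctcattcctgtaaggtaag
Gm53 H3K27Ac region: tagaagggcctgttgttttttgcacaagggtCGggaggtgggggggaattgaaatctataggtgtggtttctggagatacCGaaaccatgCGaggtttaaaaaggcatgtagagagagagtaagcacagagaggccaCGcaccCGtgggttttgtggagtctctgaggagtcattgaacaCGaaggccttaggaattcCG
Hoxa4 upstream: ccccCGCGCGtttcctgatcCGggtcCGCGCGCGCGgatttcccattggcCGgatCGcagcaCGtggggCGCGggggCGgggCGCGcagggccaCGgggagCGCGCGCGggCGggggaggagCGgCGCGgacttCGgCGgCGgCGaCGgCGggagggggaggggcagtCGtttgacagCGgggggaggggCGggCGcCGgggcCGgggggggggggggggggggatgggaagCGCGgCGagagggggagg

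H3K27Me3 covered every member in both lists. All 38 members carried it in the XX list, where 40.5% of all gene models did, and all 38 in the XY list, where 35.4% did. A region lay directly over the main TSS (the start of the transcript with the longest coding sequence) of all 38 members in both lists, against 23% and 19.1% of gene models. Of the 10 kb around the main TSS, 100% was covered in both lists for 37 members. The exception was Hoxd1, the most 3′ gene of HoxD and a regulator of pain-sensing neurons, with 79.6% covered in the XX list and 87.6% in the XY list. No member carried H3K27Me3 in 1 list only, while 8.9% of gene models carried it in the XX list only and 3.8% in the XY list only.

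Over the spans of the clusters, from the first to the last listed gene, H3K27Me3 formed near-unbroken domains. The HoxA span (chr6:52112350-52210874) and the HoxC span (chr15:102751534-102867274) were covered to 100% in both lists. The HoxD span (chr2:74506367-74603200) was covered to 99.2% in the XX list and 100% in the XY list. The HoxB span (chr11:96055630-96229570), which holds the long stretch between Hoxb13 and Hoxb9 that has no listed gene, was covered to 84.4% in the XX list and 94.1% in the XY list. For comparison, H3K27Me3 covered 4.44% of the autosomes in the XX list and 3.58% in the XY list. Of the bases under H3K27Me3 in either list, 95.7% were under it in both over the 4 spans and 49.4% over the autosomes. With 94.2% (XX) and 97.9% (XY) of the 4 spans covered, a high overlap there was fixed by the coverage. It is no measure of how well the lists match.

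**Figure D1:**
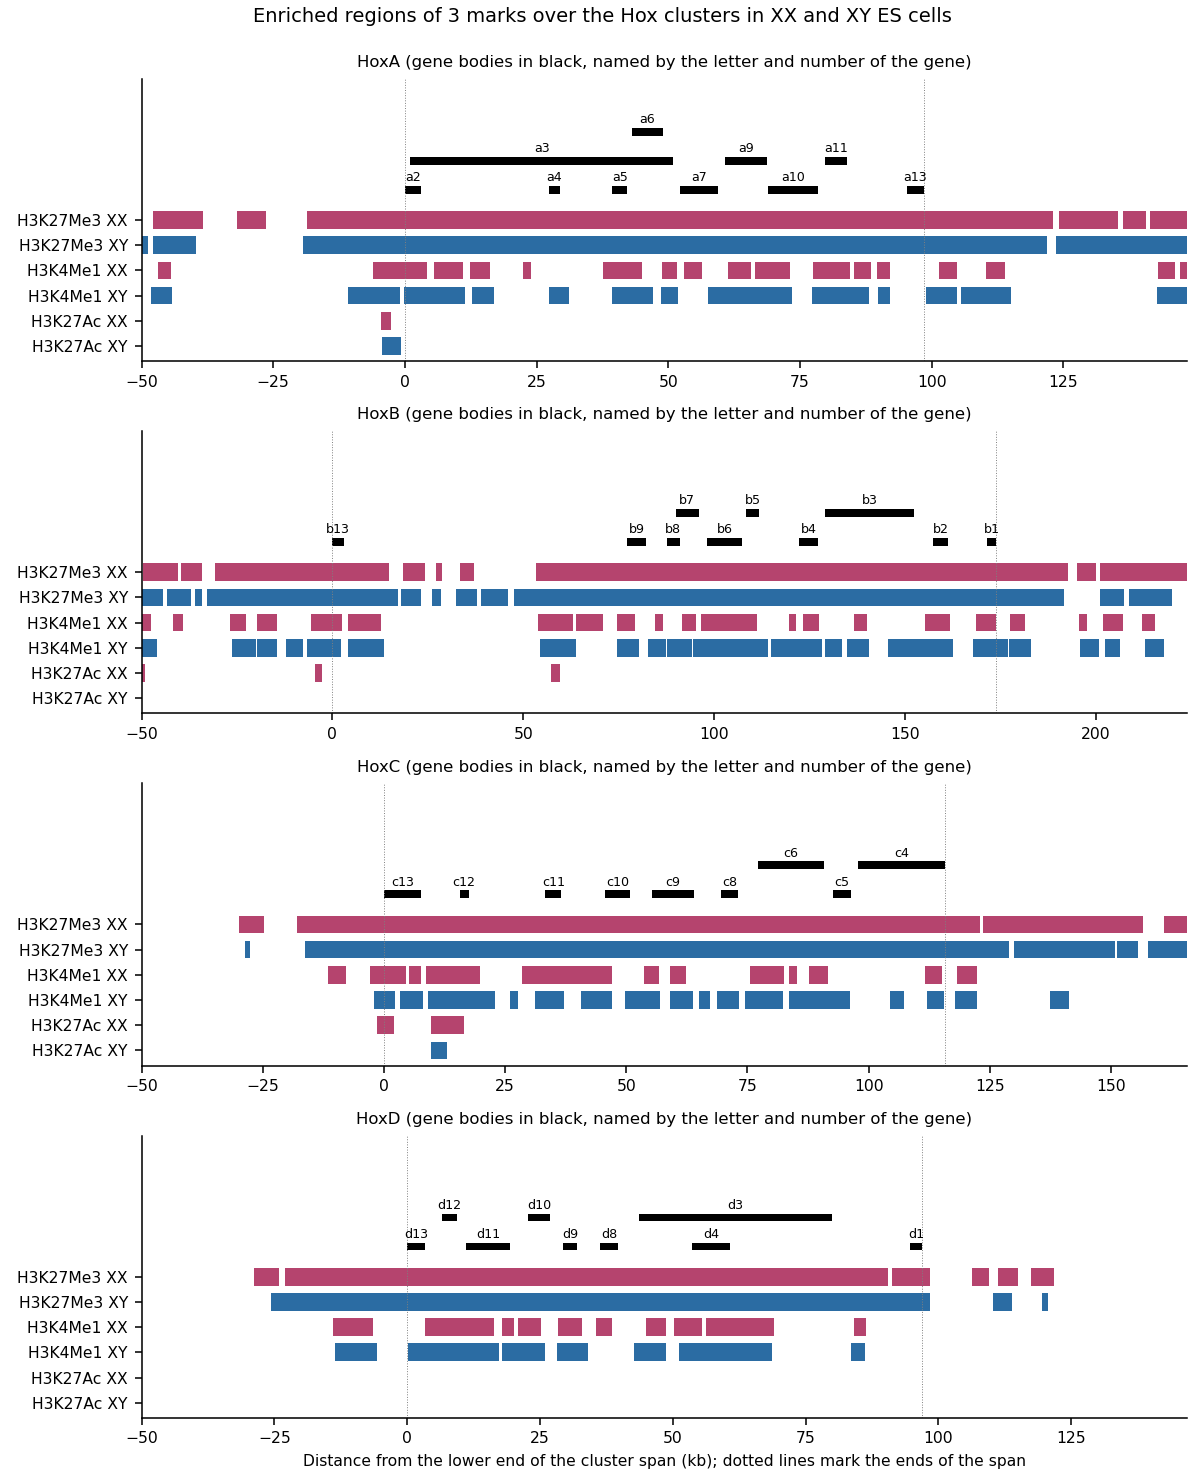
Each panel shows 1 Hox cluster with 50 kb on each side, the horizontal axis giving the distance from the lower end of the span in kb, with the listed genes in black and the regions of the 6 lists as bars (XX in red, XY in blue). H3K27Me3 runs through all 4 spans in both lists, H3K4Me1 breaks into 45 (XX) and 41 (XY) regions under it, and H3K27Ac is down to 3 (XX) and 1 (XY) regions inside the spans.

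The Hox domains were the widest H3K27Me3 regions of the genome but for 2 regions of the XX list. In the XY list the 4 widest of 15138 regions were HoxC (145 kb), HoxB (144 kb), HoxA (141 kb) and HoxD (124 kb), ahead of a 103 kb region over Lmx1b. In the XX list, HoxA (142 kb), HoxC (141 kb) and HoxB (139 kb) ranked 2, 3 and 4 of 18534, and HoxD (113 kb) ranked 6. The XX regions that ranked 1 and 5 were a 152 kb region on chromosome 6 with no protein-coding gene model and a 115 kb region on chromosome 7 over Kcnq1, Cdkn1c, Slc22a18 and Phlda2, a cluster of imprinted genes.

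**Figure D2:**
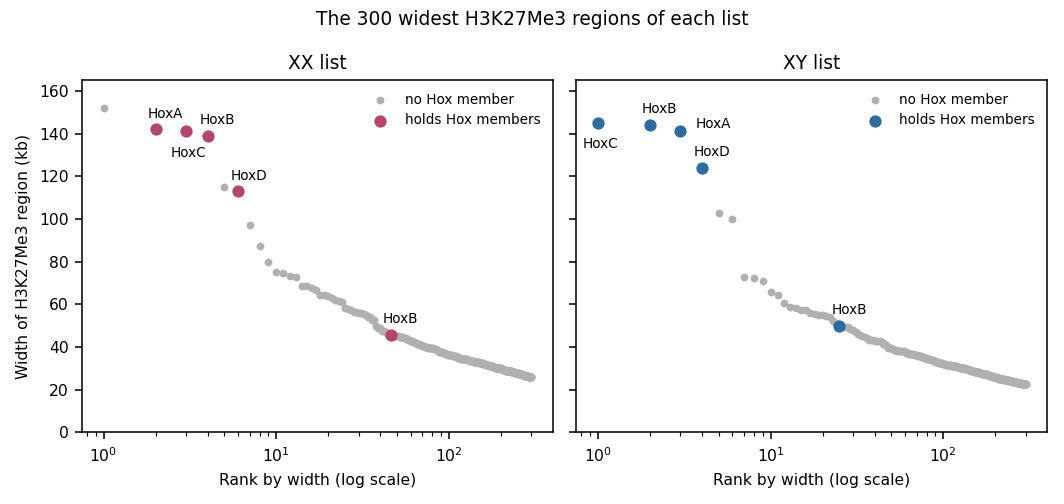
The 300 widest H3K27Me3 regions of the XX list (left) and the XY list (right) are plotted as width in kb against rank on a log scale, with regions that hold a listed Hox gene in colour and all others in grey. The 4 main Hox domains rank 1 to 4 in the XY list and 2, 3, 4 and 6 in the XX list, and the separate Hoxb13 region ranks 46 (XX) and 25 (XY).

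The edges of the domains lay close together in the 2 lists. HoxA ran from 52093801 to 52235399 in the XX list, and its ends in the XY list differed by 0.8 and 1.2 kb. HoxC ran from 102733601 to 102874599 in the XX list and ended 6 kb further on the Hoxc4 side in the XY list, with 1.6 kb between its other ends. The main HoxB domain held the 9 genes from Hoxb9 to Hoxb1 in both lists and began 5.8 kb nearer to Hoxb13 in the XY list. Hoxb13, the most 5′ gene of HoxB and a gene of the tail bud and prostate, sat apart from them in a region of 45.6 kb (XX) or 50 kb (XY). Between these stretches, a region of 7 kb at chr11:96094601-96101599 was in the XY list only, the only H3K27Me3 region inside the spans that the other list did not overlap. HoxD differed most at its 3′ end. There the XX list had a break between 74596799 and 74597601 that set Hoxd1 apart in a region of 7.2 kb, while a single XY region held all 9 HoxD genes. The break is narrow: with regions up to 1 kb apart merged, the HoxD span was covered to 100% in the XX list too.

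Beyond the spans the XX list covered more, the order also found on the autosomes (4.44 and 3.58%). With 50 kb added on each side, H3K27Me3 covered 83.5% in the XX list and 82.5% in the XY list, and the flanks alone were covered to 70.6% and 63.8%. HoxB with its flanks was still covered more in the XY list, 87.4% (XX) and 89.8% (XY). The flanks of HoxB were covered to 92.6% and 82.2%, and those of HoxD to 40.6% and 32%.

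H3K4Me1 lay under the H3K27Me3 of the clusters and covered more of them in the XY list. Over the 4 spans it covered 48.6% in the XX list and 62.2% in the XY list, a ratio of 1.28, while on the autosomes it covered 11.4% and 11.1%, a ratio of 0.968. The XY list was higher in each cluster: 53 and 60.3% of HoxA, 42.4 and 60.2% of HoxB, 50.9 and 69.5% of HoxC, and 52.7 and 58.9% of HoxD in the XX and XY lists. The spans held 45 regions with a median width of 4.4 kb in the XX list and 41 with a median of 6.4 kb in the XY list. The whole lists had the same order, with medians of 5 kb (XX) and 5.6 kb (XY) and fewer regions in the XY list. HoxC had more regions in the XY list, 14 against 11, with medians of 4.8 and 4 kb. The widest was wider in the XY list in each cluster, 10.4 against 16 kb in HoxA, 14.6 against 19.8 kb in HoxB, 12.4 against 13.8 kb in HoxC and 13 against 17 kb in HoxD. Every base under H3K4Me1 or H3K27Ac in the spans was also under H3K27Me3 in the same list, and H3K4Me1 took 51.6% (XX) and 63.5% (XY) of the H3K27Me3 bases there, against 43.5% and 43.4% on the autosomes.

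Seen gene by gene, 35 members carried H3K4Me1 in the XX list and 37 in the XY list, against 67% and 65.4% of gene models. Hoxd1 carried it in neither. Hoxa4 and Hoxc8 carried it in the XY list only (2 of 38, or 5.26%, against 2.96% of gene models), and no member carried it in the XX list only, against 4.54% of gene models. Most members thus carried the mark in both lists, and the lists parted in how much of each gene it covered. Of the 10 kb around the main TSS, the XY list covered more at 30 members, the XX list at 7, and neither at Hoxd1, with a median difference of 17.1 percentage points and medians of 56% (XX) and 81% (XY).

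**Figure D3:**
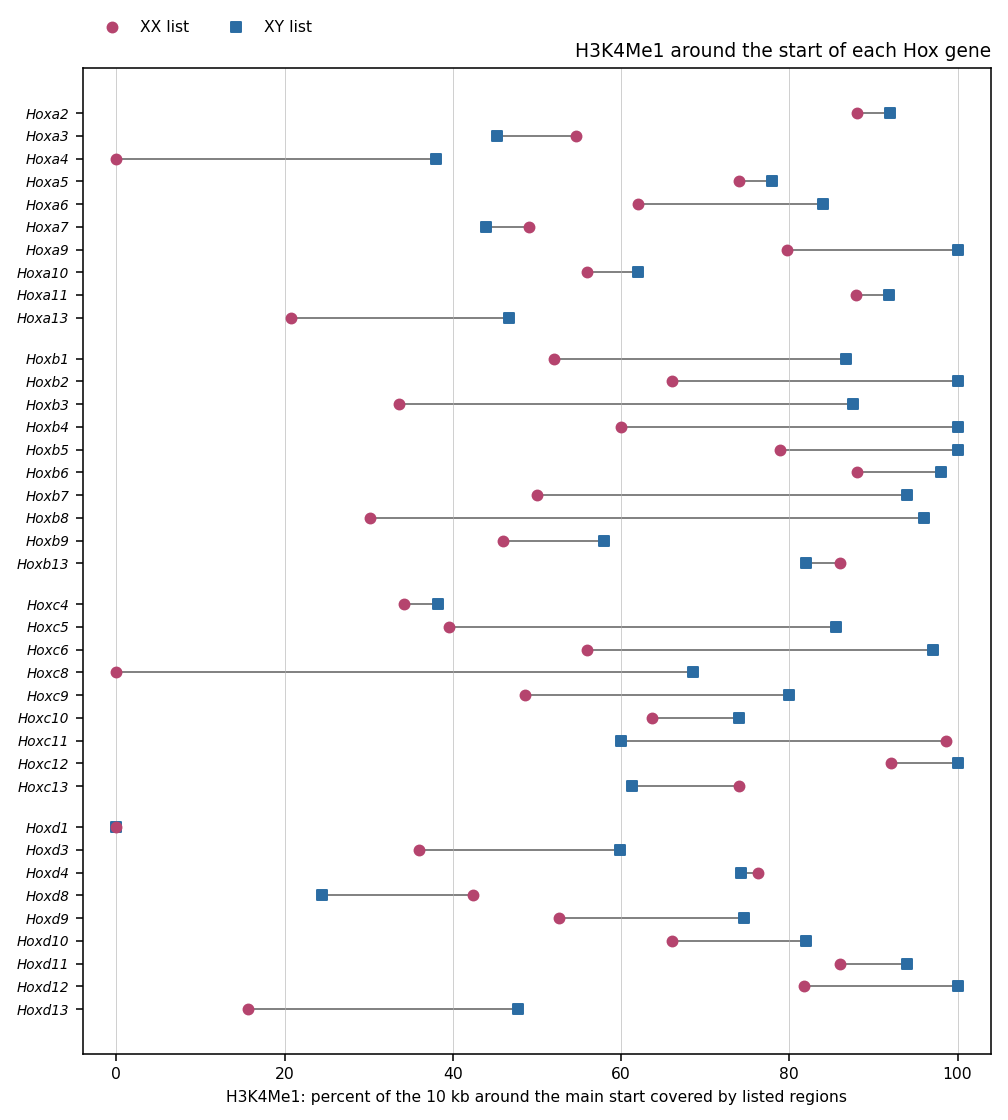
Each row is 1 member, grouped by cluster from HoxA to HoxD and ordered from 3′ to 5′ genes, with the percent of the 10 kb around its main TSS under H3K4Me1 in the XX list (red circle) and the XY list (blue square). The blue square lies to the right at 30 of 38 members, with the longest line at Hoxc8 (0 and 68.5%) and the longest one in the other direction at Hoxc11 (98.6 and 60%).

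The main TSS itself was under H3K4Me1 at 26 members in the XX list and 32 in the XY list, against 44.7% and 41.5% of gene models. Among other gene models with H3K27Me3 over their whole 10 kb in both lists, the share was 83.2% (XX) and 81.6% (XY). Of the 37 members under H3K27Me3 in this way, it was 70.3 and 86.5%. The main TSS was under the mark in the XY list only at 8 members, or 21.1% of them, against 6.99% of gene models: Hoxa4, Hoxa6, Hoxb3, Hoxb4, Hoxb7, Hoxc5, Hoxc8 and Hoxd3. It was under it in the XX list only at 2 members, Hoxa7 and Hoxd8, or 5.26%, against 10.2% of gene models. All 10 of these genes are of paralog groups 3 to 8, a range drawn after the genes were seen, and none is of groups 9 to 13. In groups 9 to 13 the main TSS was under the mark at 14 of 16 members in each list, which left little room for a difference. At 4 members, Hoxa13, Hoxb8, Hoxd1 and Hoxd13, the main TSS was under the mark in neither list, or 10.5%, against 48.3% of gene models.

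**Figure D4:**
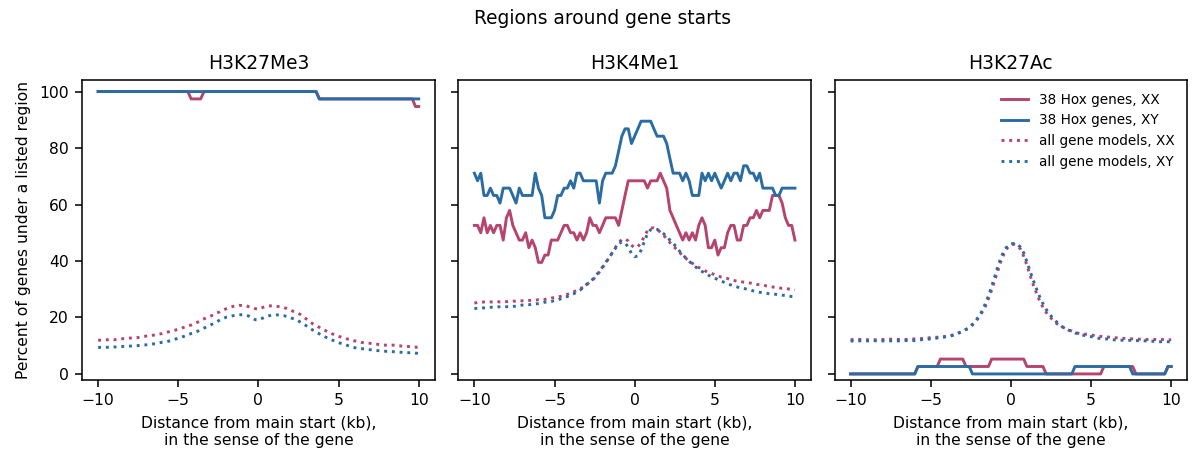
The percent of genes under a listed region is plotted against the distance from the main TSS in kb, for the 38 Hox genes (solid) and all gene models (dotted), in the XX (red) and XY (blue) lists. The Hox genes lie near 100% for H3K27Me3 in both lists, the XY line lies above the XX line for H3K4Me1 (84.2 against 68.4% at the TSS), and both Hox lines lie far below all gene models for H3K27Ac.

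In HoxB, the XY excess ran from Hoxb9 to Hoxb1. Hoxb1, which sets the identity of a segment of the hindbrain, was covered to 52% in the XX list and 86.7% in the XY list. Hoxb2, another hindbrain gene, was covered to 66 and 100%. Hoxb3, expressed in the posterior hindbrain and pharyngeal arches, was covered to 33.6 and 87.6%, and a region of 4.6 kb at its start (chr11:96184601-96189199) was in the XY list only. Its neighbours in the middle of the cluster had the same order of lists. Hoxb4, which promotes the self-renewal of blood stem cells when overexpressed, was covered to 60 and 100%. Hoxb5 was covered to 78.9 and 100%, and Hoxb6 to 88 and 98%. Hoxb7 and Hoxb8 lie next to each other and their bodies overlap in the annotation. Hoxb7 was covered to 50 and 94%. Hoxb8, which can hold myeloid progenitors in an undifferentiated state, was covered to 30.2 and 96%, although its main TSS itself lay in a gap of both lists. At the 5′ end the lists drew closer. Hoxb9, a gene of the thoracic skeleton, was covered to 46 and 58%. Hoxb13 was the only HoxB gene with more in the XX list, 86 and 82%. An XX-only region of 7.2 kb (chr11:96119401-96126599) lay over the 3′ part of Gm53, 6.17 kb before Hoxb9, and began where a shared XY region ended.

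HoxC held the largest differences in both directions. Hoxc8, which patterns the lower thoracic vertebrae and their motor neurons, had no H3K4Me1 within its 10 kb in the XX list and 68.5% in the XY list, where regions of 2.2 kb (chr15:102816601-102818799) and 4.6 kb lay before and over it. Both were in the XY list only. Hoxc11, a gene of the lumbosacral skeleton, had the opposite order, 98.6% in the XX list and 60% in the XY list. A small XY-only region of 1.6 kb (chr15:102777601-102779199) lay 5.66 kb before it. Among the other 5′ genes, Hoxc9 (48.6 and 80%) and Hoxc10 (63.7 and 74%), which specify thoracic and lumbar motor neurons, were covered more in the XY list. Hoxc12 was covered to 92.1 and 100%. Hoxc13, needed for hair and nails, was covered to 74 and 61.3%. On the 3′ side, Hoxc5 (39.5 and 85.5%) and Hoxc6 (56 and 97.1%) were covered more in the XY list, and Hoxc4 was little different (34.2 and 38.2%). Hoxc4 held an XY-only region of 2.8 kb in its body (chr15:102856001-102858799), 6.03 kb from its nearest TSS.

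HoxA had smaller differences. Its 3′ gene Hoxa2, which patterns the skeleton of the second pharyngeal arch, was covered to 88% in the XX list and 92% in the XY list. Hoxa3, needed for the thymus and parathyroid, has 6 annotated starts. Its main TSS (52163066) lies far upstream, between Hoxa6 and Hoxa7, and the 10 kb around it were covered to 54.6 and 45.3%. An XX-only region of 1.4 kb (chr6:52134801-52136199) lay in the Hoxa3 body, over another of its starts. Hoxa4, a gene of the neck vertebrae, had none in the XX list and 38% in the XY list, in an XY-only region of 3.8 kb (chr6:52139801-52143599). The middle genes did not all share an order. Hoxa5, needed for lung development, was covered to 74 and 78%, and Hoxa6 to 62 and 84%. Hoxa7 was covered to 49 and 44%, with an XX-only region of 3.4 kb (chr6:52165401-52168799) over its start. All 4 of the 5′ genes were covered more in the XY list. Hoxa9, a regulator of blood progenitors that is often active in leukemia, was covered to 79.7 and 100%. Hoxa10 (56 and 62%) and Hoxa11 (87.9 and 91.9%), which pattern the uterus, differed little. Hoxa13, a gene of the digits and genital tract, was covered to 20.7 and 46.7%.

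In HoxD, the 5′ genes that pattern the limb and digits were all covered more in the XY list. Hoxd9 was covered to 52.6% in the XX list and 74.6% in the XY list. Hoxd10 (66 and 82%), Hoxd11 (86 and 94%) and Hoxd12 (81.8 and 100%) had the same order. Hoxd13, whose mutations fuse digits, was covered to 15.7 and 47.7%. The genes further 3′ were mixed. Hoxd8 was covered to 42.4 and 24.4%, with an XX-only region of 3 kb (chr2:74542001-74544999) over its start. Hoxd4 was covered to 76.3 and 74.3%. Hoxd3, a gene of the uppermost neck vertebrae, was covered to 36 and 59.9% around its main TSS (74549986), which lies between Hoxd8 and Hoxd4.

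By position in the cluster, and with the 4 clusters pooled, the lists were closest at the 5′ end. The 7 members of the 3′ class (paralog groups 1 to 3) had a median of 52% of the 10 kb under H3K4Me1 in the XX list and 86.7% in the XY list. The 15 members of the middle class (groups 4 to 8) had medians of 50 and 84%, and the 16 members of the 5′ class (groups 9 to 13) had medians of 70 and 77.3%. The pooled order held in HoxB and HoxC, where the 5′ medians were 66 and 70% and 74 and 74%. It did not hold in HoxA and HoxD, where the lists differed most at the 5′ end. From the 3′ to the 5′ class, the HoxA medians were 71.3 and 68.7%, 55.5 and 61%, and 67.8 and 76.9%. Those of HoxD were 18 and 29.9%, 59.3 and 49.4%, and 66 and 82%. The main TSS was under the mark at 4 and 6 of the 7 members of the 3′ class, at 8 and 12 of the 15 in the middle, and at 14 and 14 of the 16 in the 5′ class. H3K27Me3 did not separate the classes, with a median of 100% in each class and list. With the 3′ class widened to groups 1 to 4, its median in the XY list was 74.3%, below that of the 5′ class, so the order of the classes in the XY list depends on where the line is drawn. Hoxa3 and Hoxd3 count in the 3′ class by their number, although the main TSS of each lies among genes of the middle class. The neighbouring genes share regions, and the classes are not independent measurements.

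The order of the lists over the Hox genes was set beside that at other genes under broad H3K27Me3. Of the gene models other than the members with H3K27Me3 over their whole 10 kb in both lists (591), 315 (53.3%) were covered more by H3K4Me1 in the XY list and 179 in the XX list, and the rest were equal, with medians of 66.3% (XX) and 72% (XY). Of the 37 members under H3K27Me3 in this way, 30 (81.1%) were covered more in the XY list and 7 in the XX list. Stretches of at least 20 kb under H3K27Me3 in both lists numbered 5 in the Hox spans and 282 elsewhere. H3K4Me1 covered more in the XY list in 5 of 5 and in 162 of 282 (57.4%), with median differences of 13.8 and 1.98 percentage points. Among the 26 other stretches of at least 40 kb the share was 69.2%, and among the 1320 of at least 10 kb it was 50.3%, lengths that were chosen after seeing the data. The 5 Hox stretches were higher by 25.6 points in the main HoxB domain, 17.5 at Hoxb13, 13.8 in HoxA, 12.5 in HoxC and 5.47 in HoxD. Of the other stretches, 25.9% had a difference above 10 points.

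**Figure D5:**
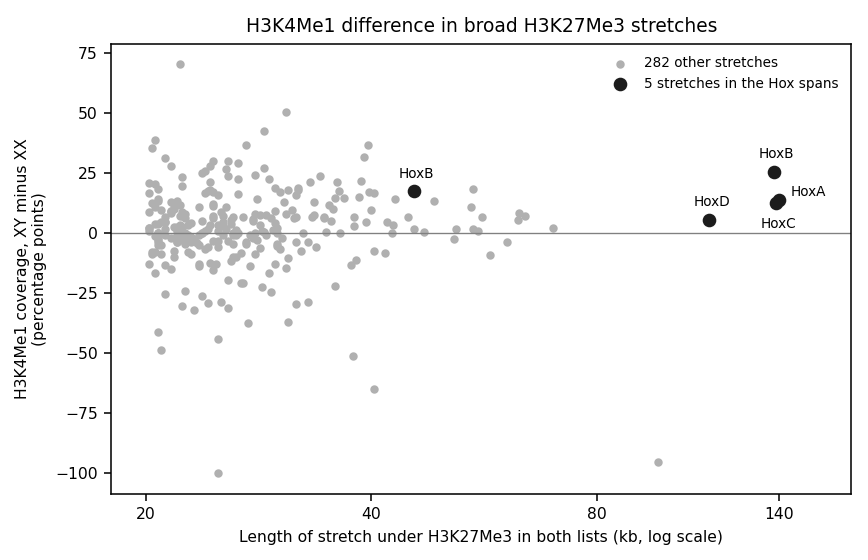
Each point is a stretch of at least 20 kb under H3K27Me3 in both lists, with its length in kb on a log axis and the H3K4Me1 coverage of the XY list minus that of the XX list in percentage points. The 5 stretches of the Hox spans (black, each named by its cluster) lie between 5.47 and 25.6 points, within the range of the 282 others (grey), and 4 of them are longer than every other stretch.

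The ES cells were grown on fibroblasts, and the marks at ES cell and fibroblast genes were counted in each list. All 10 ES cell markers, such as Pou5f1, Nanog and Esrrb, carried H3K27Ac and H3K4Me1 in both lists, against 55.7 and 62.5% of gene models. Of 17 fibroblast markers, 7 carried H3K4Me1 in the XX list and 10 in the XY list, with Twist2, Dcn and S100a4 in the XY list only, and 2 and 6 carried H3K27Ac, with Col1a1, Twist1, Twist2 and S100a4 in the XY list only. H3K27Me3 lay at 10 and 9 of the 17, with Lum in the XX list only. Of all gene models, 2.96% carried H3K4Me1 and 2.55% H3K27Ac in the XY list only, and 8.9% H3K27Me3 in the XX list only. The collagen genes Col1a2, Col3a1 and Col6a2, and Fap, carried none of the marks in either list. The part of feeder cells in the H3K4Me1 difference at the Hox genes was not tested, and neither was that of read depth or of the calling threshold, which are unknown.

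H3K27Ac was nearly absent from the Hox genes. In the XX list 3 of 38 members carried it (7.89%), against 58.8% of gene models, and in the XY list 2 did (5.26%), against 58.3%. Neither list had it at 34 members (89.5%), against 38.6% of gene models. It covered 2.32% of the 4 spans in the XX list and 0.701% in the XY list, below the 5.68 and 5.36% of the autosomes, and no region of either list lay inside the HoxA or HoxD span. Of the other gene models with H3K27Me3 over their whole 10 kb in both lists, 34.2% (XX) and 34.9% (XY) carried H3K27Ac, against 8.11 and 5.41% of the 37 members under H3K27Me3 in this way. These shares count regions anywhere over the body, and gene bodies differ in length. Over the main TSS alone, H3K27Ac lay at 15.2% (XX) and 16.4% (XY) of those gene models and at 5.41 and 0% of the 37 members. The 5′ class held all 3 members with H3K27Ac in the XX list and 1 of the 2 in the XY list.

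The regions with H3K27Ac stood at the 5′ ends of HoxC and HoxB. Between Hoxc13 and Hoxc12, a region of 6.8 kb in the XX list (chr15:102761201-102767999) reached over the start of Hoxc12, and the XY region began at the same base but was 3.4 kb wide (chr15:102761201-102764599) and stopped 2.59 kb short of it. Of the 10 kb around the Hoxc12 TSS, 58.1% was under H3K27Ac in the XX list and 24.1% in the XY list. The bases printed above for Hoxc12 lie in the part that the XX list alone held. Over the start of Hoxc13, a region of 3.4 kb (chr15:102750201-102753599) was in the XX list only and covered 34% of its 10 kb. These were the 2 members with H3K27Ac over the main TSS in the XX list, and none had it in the XY list, against 45.7 and 46.1% of gene models. An XX-only region of 1.6 kb (chr11:96051201-96052799) lay 2.83 kb before Hoxb13. The XX-only region of 2.4 kb (chr11:96112801-96115199) between Hoxb13 and Hoxb9 lay inside Gm53, 17.6 kb from the start of Hoxb9, too far to count for a member. Hoxb13 and Hoxc13 thus carried H3K27Ac in the XX list only (2 of 38, or 5.26%, against 3.1% of gene models).

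Hoxa2 was the member with H3K27Ac in the XY list only (1 of 38, or 2.63%, against 2.55% of gene models). The region lay outside the HoxA span, on the far side of the 3′ end of Hoxa2, and did not touch its body. The XX list had an overlapping region, and the call turns on the limit of 5 kb: the nearest edge lay 3.81 kb from the Hoxa2 TSS in the XY list and 5.61 kb in the XX list. With a limit of 2 kb, no member carried H3K27Ac in the XY list. The XX region at Hoxc12 ranked 5415 by width of the 28784 in its list, and the others at members were of middling to small width in theirs. With the widest 50% of each list only Hoxc12 still had H3K27Ac in the XX list and no member in the XY list.

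By combination of marks, H3K27Me3 with H3K4Me1 and without H3K27Ac was the usual state of a Hox gene. It was found at 32 members in the XX list (84.2%), against 10.5% of gene models, and at 35 in the XY list (92.1%), against 9.27%. All 3 marks were found at 3 members (XX) and 2 (XY), or 7.89 and 5.26%, against 24.1 and 20.2% of gene models. H3K27Me3 alone was found at Hoxa4, Hoxc8 and Hoxd1 in the XX list (7.89%, against 4.88% of gene models) and at Hoxd1 in the XY list (2.63%, against 4.79%).

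The DNA at the Hox starts was richer in CpG than that at an average gene, and close to that of other genes with H3K27Me3. In 1 kb around the main TSS, the ratio of observed to expected CpG had a median of 0.654 (range 0.257 to 0.995) over the 38 members, 0.555 over all gene models and 0.641 over the 7069 gene models with H3K27Me3 in both lists. The ratio was above 0.6 at 57.9% of the members, 46.2% of gene models and 55.4% of those with H3K27Me3. The GC content had medians of 57.5, 55 and 59%.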

How the data were processed

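ChIP-seq libraries of H3K27Ac, H3K27Me3 and H3K4Me1 from XX and XY ES cells were sequenced by the authors and the reads aligned to mm9 with Bowtie2 at default settings. Enrichment was measured with Bedtools according to the methods, while Bowtie and deepTools stand in the processing notes of the submitters. The deposited files are 6 lists of enriched regions, each with chromosome, start and end in bp and no other value. How regions were called, at what threshold, against which control and from which lines is not given in the sources used here, and region boundaries fall on multiples of 200 bp. A deeper library or a looser threshold can lengthen or widen regions, and the lists cannot show this.

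The 22367 protein-coding gene models were those of GENCODE M1, whose assembly NCBIM37 is mm9. Both models of Hoxa3 were joined. A gene carried a mark where a region overlapped its body or lay within 5 kb of a TSS by at least 1 bp. Regions were shared where they overlapped one of the other list by at least 1 bp. The text names all 38 members and every region inside a span that was in 1 list only, and of other genes those with a mark in 1 list only. One stretch of DNA is not reported here. With 1 list per sex and mark there was no test, SD or interval between the sexes. Coverage was computed in Python 3.11.15, tested on simulated data (1000 of 1000 values equal) and checked against bedtools 2.31.1 (48 of 48 values equal). Figures were drawn with matplotlib 3.10.9 and binomial intervals came from SciPy 1.17.1. The members, gene lists, rules and tests were chosen with earlier results of these data known, and no pattern here is independent of them.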

Additional observations from a re-analysis of the deposited data

How the results depend on the processing

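Depth and the strength of each region are unknown, no replicate can be left out because the lists are given by sex and not by line, and line and sex cannot be told apart. No paired analysis was possible because there is 1 list per sex and mark and no test. Of 412 recomputed values, 327 stayed within the limits set for a like value (1.5 times for a count, 5 percentage points for a difference in coverage, the 95% binomial interval for a share, and 1 SD for base composition), 83 moved and 2 turned in direction. For coverage and class medians the interval took every 200 bp as a separate trial, although neighbouring ones lie in the same regions. There it is a rule of thumb and not a measure of spread. Counting the genes by 1 transcript moved none of 24 values. Both turns came with 50 kb added to the spans, where the H3K27Me3 difference between the XY and XX lists was -1.06 points over the 4 clusters and -3.96 points over HoxD. The H3K4Me1 difference over the 4 clusters kept its direction under all 4 alternatives, between 10.7 and 19.1 points.

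The widest 50% of each list moved 40 of 99 values, and narrow regions are lost there by construction, while 50 kb on each side moved 25 of 45 and a reciprocal overlap 4 of 6. H3K27Ac was then carried by 1 member (XX, also the count over the main TSS and in the XX list only) and 0 (XY, also in the XY list only, and 0% of both the 3′ and the 5′ class), and covered 1.4 and 0% of the spans, with 1 XX-only region. H3K4Me1 was carried by 23 members in the XX list (68.8% of the 5′ class), by 1 in the XX list only and by 13 in the XY list only. It lay over the main TSS of 16 members in the XX list and of 1 in that list only, and covered 32.4 (XX) and 51.5% (XY) of the spans, a difference of 19.1 points, with 2 XX-only regions. Its class medians were 0 (XX) and 59.9% (XY) for the 3′ class and 55.9% (XX) for the 5′ class. H3K27Me3 covered 93.1% in the XX list and had 2 XY-only regions, also 2 with equal numbers of regions.

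With equal numbers of regions H3K4Me1 covered 45.8% of the spans in the XX list. Within 2 kb of a TSS, H3K27Ac was carried by 0 members in the XY list and 0 in that list only (0% of either class), and H3K4Me1 by 1 in the XX list only and 4 in the XY list only. With 50 kb on each side, coverage in the XX and XY lists was 83.5 and 82.5% for H3K27Me3 and 35 and 45.6% for H3K4Me1. A reciprocal overlap of 50% left 20 XX-only and 16 XY-only H3K4Me1 regions, 1 XX-only H3K27Me3 region and 1 XY-only H3K27Ac region. Merging regions up to 1 kb apart gave the 5′ class a median of 76.7% in the XX list, and groups 1 to 4 as the 3′ class one of 74.3% in the XY list. Among other broad H3K27Me3 stretches, the share with more H3K4Me1 in the XY list was 50.3% from 10 kb and 69.2% from 40 kb, lengths chosen after seeing the data. The cause of these moves was not tested where the setting does not fix it.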

Other observations

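Of 9 cofactor genes (Pbx, Meis and Pknox), whose products bind DNA together with Hox proteins, 8 carried H3K27Ac in both lists. H3K27Me3 was in the XX list only at Pbx2 and Pbx4, and H3K4Me1 in the XX list only at Meis3. The 3 Cdx genes, which switch on Hox genes in the embryo, and the 3 ParaHox genes Gsx1, Gsx2 and Pdx1 resembled the clusters: all 6 carried H3K27Me3 in both lists and none carried H3K27Ac. Cdx4 carried H3K4Me1 in the XX list only. Of 12 genes of the retinoic acid pathway, a signal that opens the 3′ ends of the clusters, 11 carried H3K27Me3 in both lists and 8 carried H3K27Ac in each. Aldh1a2, which makes retinoic acid, carried H3K27Ac and H3K4Me1 in the XX list only, and the receptor gene Rxrg carried H3K27Ac in the XY list only. All 11 Polycomb and trithorax genes carried H3K27Ac and H3K4Me1 in both lists. Among them, H3K27Me3 was in the XX list only at Kdm6b, an H3K27 demethylase, and in the XY list only at Cbx7, a Polycomb subunit. Of all gene models, 55.7% carried H3K27Ac, 31.6% H3K27Me3 and 62.5% H3K4Me1 in both lists. Background shares for a mark in 1 list only were 3.1% (H3K27Ac), 8.9% (H3K27Me3) and 4.54% (H3K4Me1) of gene models for the XX list and 2.55, 3.8 and 2.96% for the XY list.

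Of 12 neighbouring genes, 7 carried H3K27Me3 in each list, with Atp5g3 in the XX list only and Calcoco1 in the XY list only, and 10 carried H3K27Ac in both. Evx1 and Evx2, homeobox genes next to HoxA and HoxD, carried H3K27Me3 and H3K4Me1 and no H3K27Ac in either list. The 27 other annotated genes in the spans, among them Mir10a, Mir10b, Mir196b and Mir615, all carried H3K27Me3 in both lists. H3K4Me1 was missing at Gm11536 alone, in the XX list, and H3K27Ac was found at Gm53 and Gm11539 in the XX list only and at 5730446D14Rik in the XY list only.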
